A study of Mus musculus with 2 samples.

Results

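The genes described here are 10 members of the transforming growth factor beta (TGF-beta) pathway, namely the ligands Tgfb1, Tgfb2 and Tgfb3, the receptors and co-receptor Tgfbr1, Tgfbr2, Acvrl1 and Eng, and the intracellular Smad3, Smad7 and Skil. They were chosen by symbol, and all 10 were found among the 19059 genes measured in hippocampal cells of aged mice. The study asked whether tomatidine, a steroidal alkaloid of tomato plants, acts on senescent cells and on cognition in old age. Both groups were C57BL/6 mice, 21 months old when treatment began and treated for 3 months. The control group received no tomatidine, and the tomatidine group received it as 0.05% of the diet. Hippocampi of 4 mice per group were pooled into 1 library of fixed single cells per group. With 1 library per group there was no replicate, no test between groups could be run and no p-value is given. The intervals below are 95% intervals for counting error only, and they do not cover differences between mice or between the making of the 2 libraries.

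TGF-beta ligands are made as latent dimers, held in the extracellular matrix until they are released. An active dimer binds the type II receptor TGFBR2, which recruits and phosphorylates a type I receptor, usually TGFBR1 (also known as ALK5) and in endothelial cells also ACVRL1 (ALK1). Endoglin, the product of Eng, is a co-receptor of endothelial cells. The receptors phosphorylate SMAD proteins such as SMAD3, which enter the nucleus and switch target genes on or off. SMAD7 is an inhibitor that the pathway itself induces, and SKIL (SnoN) holds SMAD target genes down. In the brain the pathway is known for keeping microglia in their resting state and for stabilizing vessel walls, and loss of ENG or ACVRL1 causes hereditary hemorrhagic telangiectasia.

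The stretches around the transcription start sites of 3 members are shown because these genes were highest in vessel or microglial cells and because the levels of Tgfb1 and Tgfbr2 ran together over the cell classes, as described below. Each window runs from 250 bases before to 50 bases after the start, read 5′ to 3′ on the strand of the gene, from RefSeq's annotation of GRCm38.p6. Capitals mark GGAAG or its reverse complement CTTCC, 1 form of the GGAA core bound by ETS factors, a family of regulators that includes PU.1 in microglia and ERG in endothelium. GGAA followed by other letters is not marked or counted.
Tgfb1, chr7:25686752-25687051, plus strand: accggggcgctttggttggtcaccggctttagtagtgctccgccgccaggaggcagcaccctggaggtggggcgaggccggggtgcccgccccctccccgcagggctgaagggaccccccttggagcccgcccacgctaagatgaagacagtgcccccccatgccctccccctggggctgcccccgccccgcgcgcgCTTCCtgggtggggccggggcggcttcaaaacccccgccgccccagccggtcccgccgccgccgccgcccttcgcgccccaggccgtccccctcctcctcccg
Tgfbr2, chr9:116175314-116175613, minus strand: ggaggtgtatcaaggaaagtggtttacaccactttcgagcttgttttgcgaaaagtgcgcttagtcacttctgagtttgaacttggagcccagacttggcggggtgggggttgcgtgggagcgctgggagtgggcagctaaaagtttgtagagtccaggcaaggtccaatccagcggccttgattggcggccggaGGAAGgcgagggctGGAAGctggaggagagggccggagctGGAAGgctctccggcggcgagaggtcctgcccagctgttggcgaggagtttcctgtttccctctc
Eng, chr2:32646345-32646644, plus strand: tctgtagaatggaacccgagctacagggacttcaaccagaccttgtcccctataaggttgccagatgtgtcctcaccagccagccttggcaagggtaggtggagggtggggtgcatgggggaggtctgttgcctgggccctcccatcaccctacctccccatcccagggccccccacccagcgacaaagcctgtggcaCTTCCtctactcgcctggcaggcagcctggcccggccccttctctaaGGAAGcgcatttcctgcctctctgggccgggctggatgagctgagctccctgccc
This form of the ETS core stood once in the Tgfb1 window, at 3 places in that of Tgfbr2 and at 2 places in that of Eng, and 71.4% of all 32851 annotated windows held at least 1. The SMAD box CAGAC or its reverse complement GTCTG, the letters that SMAD3 binds, was absent from the Tgfb1 window, stood once in the Tgfbr2 window and at 2 places in the Eng window, against at least 1 in 49.6% of all windows. These matches describe the letters and are not shown to be bound.

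The control library held 15912 cells with 279525565 unique molecular identifiers (UMIs, tags of single probed transcripts), and the tomatidine library 15185 cells with 259059908. After filters on cells, 15115 and 14502 cells remained, with medians of 7077 and 7408 UMIs. They formed 36 clusters, and a class was named only where its marker genes led, without use of the pathway genes. The classes counted below are endothelial-like (301 control and 414 tomatidine cells), mural-like (38 and 40), microglia-like (860 and 771), astrocyte-like (1756 and 1932), oligodendrocyte-like (3002 and 2327), oligodendrocyte precursor (OPC)-like (381 and 346), excitatory neuron-like (3711 and 2969) and interneuron-like cells (560 and 525). Fibroblast-like cells (285 and 529) and choroid plexus-like cells (346 and 32) are given where they add a level. Clusters holding 3848 control and 4605 tomatidine cells had no clear class. The libraries did not hold the same tissue in the same shares, since clusters led by Pou4f2 and Barhl2 (198 and 673 cells) or by Gata3 and Sox14 (180 and 524) were larger in the tomatidine library. Choroid plexus markers were lower with tomatidine in all 8 classes, by log2 ratios of −1.67 to −4.60. Free RNA was not measured, and its part in this difference was not tested. Cell barcodes found in both libraries numbered 292.

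Levels are given in CPM, the UMIs of a gene scaled to a fixed total of UMIs in each class and library. Each gene has probes of its own, so a level is compared between classes and between libraries but not between genes. Classes are called different in level here only where the counting interval of their ratio left out equality, and the order covers the 10 classes with at least 30 cells in each library.

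Tgfb1 (ENSMUSG00000002603, chr7:25687002-25705077, plus strand of mm10) was highest in microglia-like cells. Its level there was 287 CPM in control cells (exact Poisson interval 268 to 306) and 298 CPM in the tomatidine library (278 to 320). Mural-like cells followed in the control library with 147 CPM, endothelial-like cells with 84.7 and fibroblast-like cells with 42.6, each step beyond counting error. In the tomatidine library, endothelial-like (82.3 CPM) and mural-like cells (62.8 CPM) did not differ beyond it. The neural classes lay at 6.33 CPM or less in both libraries, so this ligand was found mainly in immune and vessel cells. At least 1 Tgfb1 UMI was present in 50.1% of control and 52.0% of tomatidine microglia-like cells, at median depths of 3111 and 2863 UMIs. Excitatory neuron-like cells, much deeper at medians of 14720 and 13770 UMIs, had one in 1.35% and 1.55%. The part of free RNA in these shares was not tested.

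Tgfb2 (ENSMUSG00000039239, chr1:186622792-186705989, minus strand) was found in choroid plexus, vessel and some neural classes. Choroid plexus-like cells were highest, with 331 CPM in control and 379 in tomatidine cells. Endothelial-like cells came next (116 and 128 CPM), then excitatory neuron-like cells (98.4 and 107 CPM). Astrocyte-like cells stood at 63.1 and 60.3 CPM, while interneuron-like (14.3 and 13.3) and oligodendrocyte-like cells (10.6 and 7.14) closed the order in both libraries. The named excitatory clusters together lay above the interneuron-like cells in Tgfb2, but a cluster without a class led by Nxph3, an excitatory marker, had 6.88 and 7.14 CPM.

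For Tgfb3 (ENSMUSG00000021253, chr12:86056745-86079041, minus strand) the neurons had the reverse order. In the control library interneuron-like cells were highest at 32.5 CPM, and excitatory neuron-like cells had 6.89, not different from microglia-like cells beyond counting error. In the tomatidine library these levels were 33.2 and 7.81 CPM, but mural-like (78.4 CPM from 15 UMIs) and endothelial-like cells (53.7 CPM) stood above the interneurons. Oligodendrocyte-like cells had 22.6 and 24.7 CPM, and microglia-like cells 7.93 and 6.26.

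Tgfbr1 (ENSMUSG00000007613, chr4:47353222-47414931, plus strand), the type I receptor, was a microglial gene in these cells. Microglia-like cells held 1438 CPM (1396 to 1480) in control and 1232 (1190 to 1274) in tomatidine cells. The next class, fibroblast-like cells, had 102 and 97.5 CPM, and OPC-like cells 69.7 and 66.9. Oligodendrocyte-like cells had 48.1 and 39.1 CPM, and interneuron-like cells had 15.3 and 17.4. A Tgfbr1 UMI was found in 80.9% of control and 76.5% of tomatidine microglia-like cells, against 18.6% and 16.6% of the much deeper interneuron-like cells.

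Tgfbr2 (ENSMUSG00000032440, chr9:116084293-116175360, minus strand), the type II receptor, was also highest in microglia-like cells, at 701 and 686 CPM. Endothelial-like cells were next at 360 and 368 CPM, and fibroblast-like cells had 214 and 194. Among the neural classes interneuron-like cells were highest, with 18.3 and 25.6 CPM, while excitatory neuron-like cells had 4.94 and 5.11 and, in the tomatidine library, did not differ from oligodendrocyte-like cells beyond counting error. Both signalling receptors were therefore measured at their highest in microglia-like cells, which also held the most Tgfb1. Ependymal-like cells, too few for the order with 27 and 12 cells, showed 382 and 402 CPM of Tgfbr2.

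Acvrl1 (ENSMUSG00000000530, chr15:101128522-101145336, plus strand) was nearly confined to endothelial-like cells among the classes measured, with 341 CPM (322 to 361) in control and 386 (367 to 406) in tomatidine cells. Fibroblast-like cells had 29.3 and 23.8 CPM and microglia-like cells 16.8 and 13.6. Control mural-like cells had 0 UMIs of Acvrl1, which at 3 counts allows up to 15.8 CPM, and tomatidine mural-like cells had 7 UMIs. Astrocyte-like, oligodendrocyte-like, OPC-like and neuronal classes had at most 1.38 CPM in either library.

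Eng (ENSMUSG00000026814, chr2:32646595-32682669, plus strand) was led by endothelial-like cells, at 1339 CPM (1301 to 1378) in control and 1306 (1270 to 1343) in tomatidine cells. Mural-like cells followed with 515 and 518 CPM. Microglia-like cells held 139 and 150 CPM and fibroblast-like cells 134 and 71.7. Eng was detected in 79.4% and 79.5% of endothelial-like cells, at median depths of 6156 and 4618.5 UMIs. In oligodendrocyte-like cells, at 5290.5 and 4840 UMIs, the shares were 1.67% and 1.12%.

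Smad3 (ENSMUSG00000032402, chr9:63646767-63757994, minus strand), the transcription factor that carries the signal of TGFBR1, was highest in excitatory neuron-like cells. The level there was 158 CPM (155 to 161) in control and 161 (157 to 164) in tomatidine cells. Fibroblast-like cells had 106 and 115 CPM and microglia-like cells 98.7 and 89.1. Oligodendrocyte-like cells (19.9 and 17.1 CPM) and interneuron-like cells (15.9 and 21.2) were the lowest classes.

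Smad7 (ENSMUSG00000025880), the inhibitory SMAD, was highest in oligodendrocyte-like cells, at 342 CPM (333 to 350) in control and 315 (306 to 324) in tomatidine cells. Endothelial-like cells were next with 225 and 240 CPM, and microglia-like cells had 125 and 123. The receptor Tgfbr2 was near its lowest in the class where this inhibitor peaked, at 6.50 and 6.35 CPM in oligodendrocyte-like cells. The classes next in Smad7, endothelial-like and microglia-like cells, were however the highest in Tgfbr2. Precursors held 103 and 71.5 CPM of Smad7, while excitatory neuron-like cells had 29.998 and 29.7 CPM and interneuron-like cells 36.9 and 28.0.

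Skil (ENSMUSG00000027660, chr3:31095058-31122577, plus strand) was measured in every class. Microglia-like cells had 221 and 216 CPM, excitatory neuron-like cells 153 and 138, and endothelial-like cells 119 and 119. The lowest class, interneuron-like cells, still held 38.2 and 40.5 CPM.

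**Figure D1:**
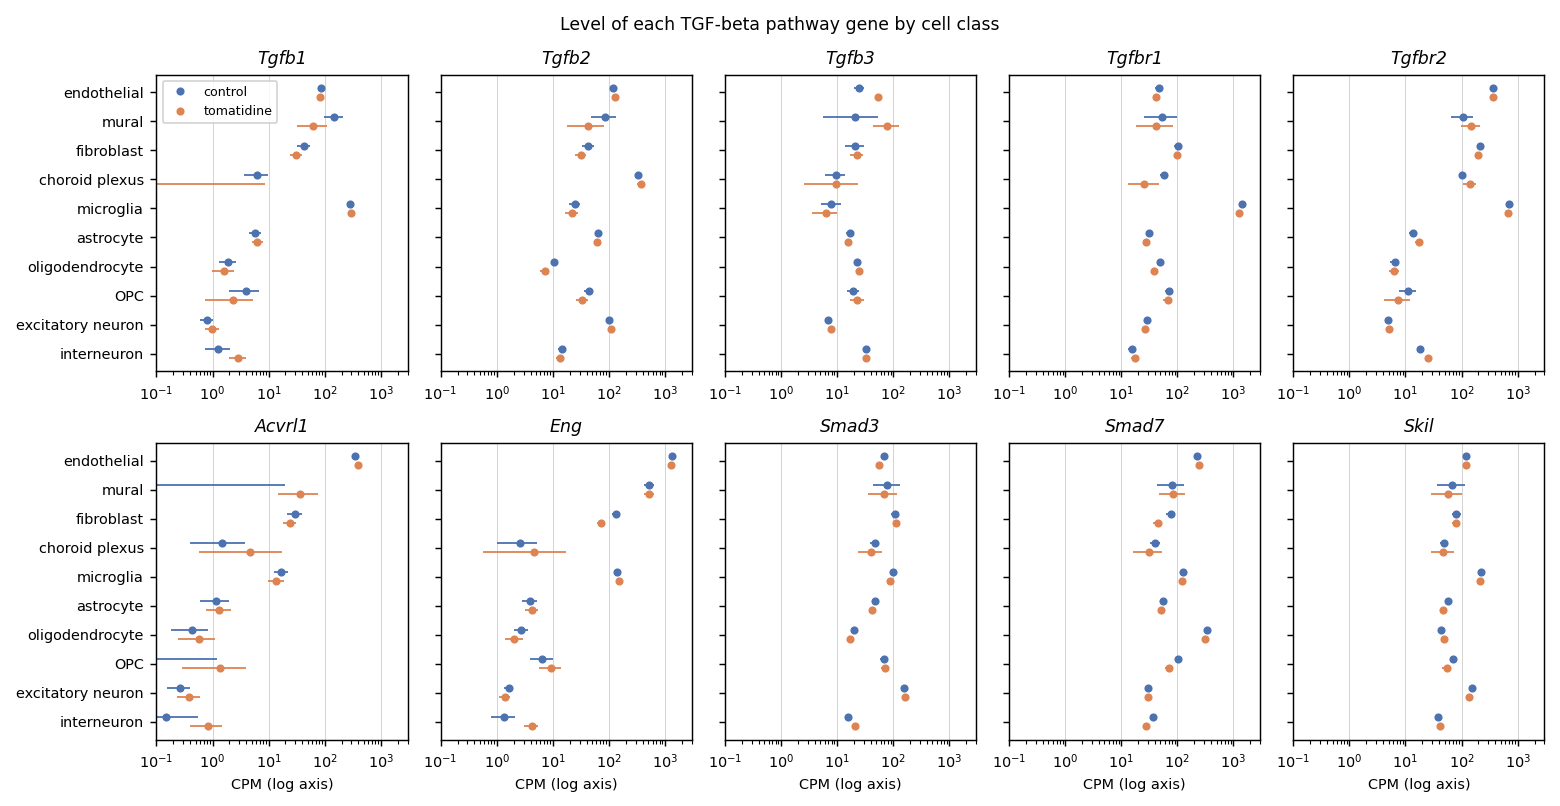
Level of the 10 genes in 10 cell classes, in CPM on a log axis, with 1 point per library (blue control, orange tomatidine) and lines for the 95% counting interval; a class at 0 UMIs has a line and no point. Tgfbr1 stands out in microglia-like cells (1438 and 1232 CPM), Acvrl1 and Eng in endothelial-like cells, and the points of the libraries mostly lie close together.

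Over 8 classes with at least 50 cells in each library (fibroblast-like cells included, mural-like cells not), several members had similar profiles. On log2(CPM + 1), Tgfb1 and Tgfbr2 had a Pearson r of 0.97 in both libraries, Acvrl1 and Eng 0.98 and 0.97, Tgfb1 and Eng 0.90 and 0.88, and Smad3 and Skil 0.84 and 0.70. The points of each r share 1 library and any free RNA in it, and the values are descriptions. Among 13912 genes with at least 100 UMIs per library, the profiles most like that of Tgfb1 in the control library were those of Arhgdib, Baz1a and Anxa3, with r of 0.998 to 0.993 (0.995, 0.939 and 0.981 in the tomatidine library). Those most like Tgfbr1 were Cd86, Tmem104 and Nfam1 (r of 0.982 to 0.976), and those most like Tgfbr2 were Rcsd1, Rin3 and Klrg2 (0.990 to 0.986). Acvrl1 was closest to Procr, Slfn5 and Xdh (0.995 to 0.993), and Eng to Tnfsf10, Itpr3 and Sp100 (0.988 to 0.984). Tgfb2 was closest to Bhlhe40, Kbtbd11 and Psmc3ip (0.968 to 0.960), and Tgfb3 to Aplp2, Optn and Afap1 (0.942 to 0.931). Smad3 was closest to Rreb1, Capsl and Ctdnep1 (0.959 to 0.954), Smad7 to Xaf1, Micu2 and Adipor2 (0.980 to 0.971), and Skil to Srsf9, Vti1a and Kmt2d (0.977 to 0.948). For Ctdnep1, Psmc3ip and Optn the likeness was lower in the tomatidine library, at 0.572, 0.648 and 0.682.

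Within the neurons the members separated clusters that the pathway genes had not helped to define. Excitatory neuron-like cells fell into 4 clusters, led by Mylk3 and Nhlh1, by Tdo2 and Dsp, by Fibcd1 and Spink8, and by Cldn22 and Olfr550. Smad3 was 284 CPM in the control and 280 CPM in the tomatidine library in the Mylk3 cluster and 171 and 180 in the Tdo2 cluster. It was 61.0 and 68.1 CPM in the Fibcd1 cluster and 34.4 and 39.3 in the Cldn22 cluster. The same order of the 4 clusters held in both libraries. Tgfb2 was ordered otherwise, with its highest level in the Cldn22 cluster (203 and 181 CPM) and its lowest in the Fibcd1 cluster (37.6 and 50.5). Tgfbr1 was 44.1 and 40.9 CPM in the Mylk3 cluster and 39.9 and 37.9 in the Tdo2 cluster. In the Fibcd1 (5.55 and 6.84) and Cldn22 clusters (7.17 and 5.87) it was far lower, so the receptor split the excitatory neurons into a higher and a lower pair. Skil ranged only from 116 to 178 CPM in control and from 100 to 155 in tomatidine cells.

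The interneuron-like cells were in 2 clusters, one led by Crhbp and Sst and the other by Vip and Htr3a. Tgfb3 belonged to the first, with 48.0 and 52.5 CPM against 6.40 and 7.62 in the second. Tgfb2 was higher in the second, with 27.6 and 20.002 CPM against 6.33 and 8.33. Among inhibitory neurons, too, the clusters thus differed in which ligand they held. Tgfbr2 was 21.03 and 30.004 CPM in the Sst cluster and 13.8 and 19.8 in the Vip cluster.

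**Figure D2:**
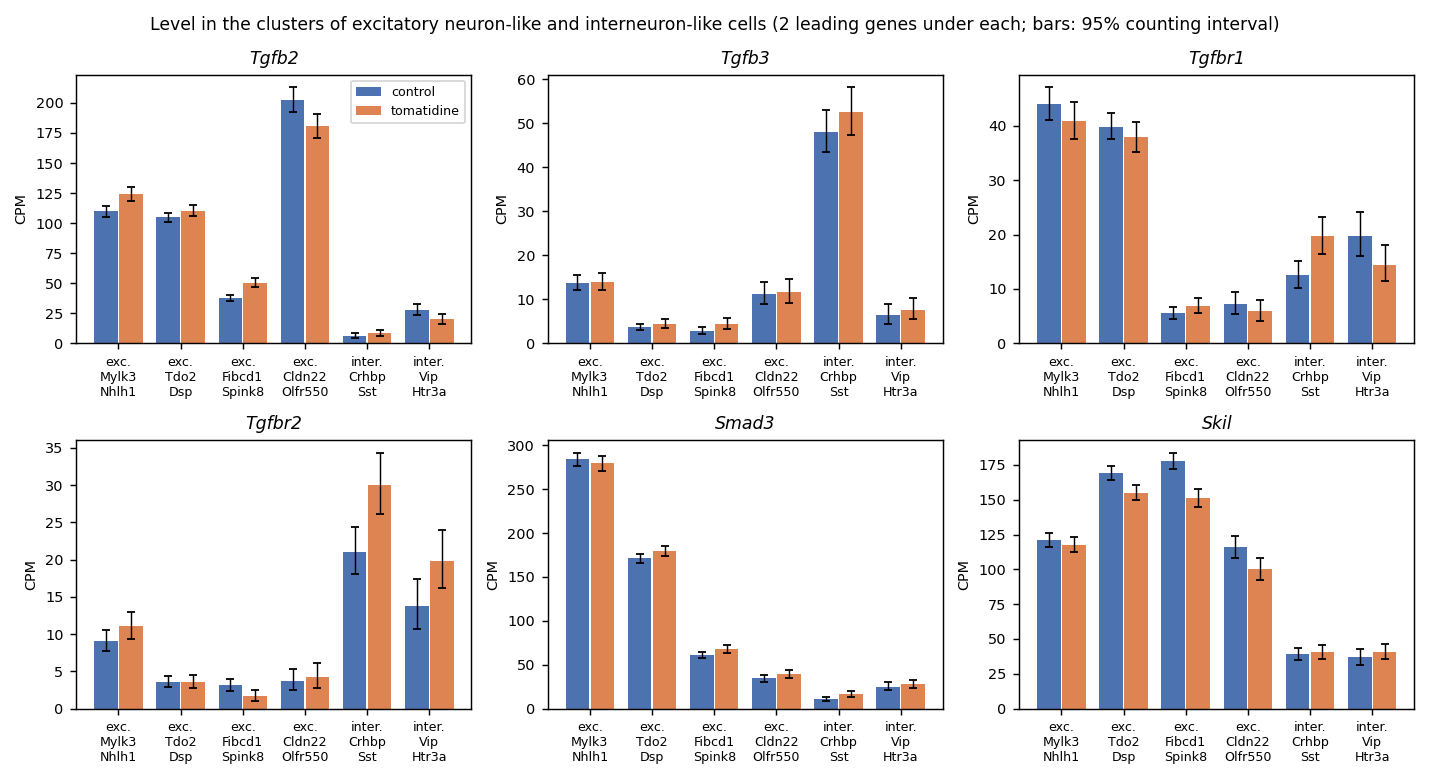
Level in CPM (bars from 0, with 95% counting intervals) of 6 members in the 4 excitatory and 2 interneuron clusters, named by leading genes, in the control (blue) and tomatidine (orange) library. Tgfb3 peaks in the Crhbp and Sst cluster (48.0 and 52.5 CPM), Smad3 in the Mylk3 and Nhlh1 cluster (284 and 280 CPM) and Tgfb2 in the Cldn22 and Olfr550 cluster (203 and 181 CPM).

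Glial clusters also differed. Microglia-like cells in the cluster led by Tmem119 had 1624 and 1426 CPM of Tgfbr1, and those in the cluster led by Ctss and Tyrobp had 532 and 500. Tgfb1 was 320 and 344 CPM in the first and 125 and 125 in the second. Tgfbr2 was 786 and 794 CPM against 285 and 278, and Eng was 156 and 176 CPM against 53.9 and 54.5. The second cluster was also shallower, with median depths of 1319 and 1297 UMIs against 3857 and 3547.5, and Smad7 and Skil were lower there too, while Tgfb2 was 40.9 and 28.2 CPM against 21.4 and 20.03. The part of depth in these levels was not tested. Cells with a UMI of Cst7 or Itgax, genes of activated microglia, were compared with the other microglia-like cells. Their Tgfbr2 log2 ratio over the others was 0.19 (0.05 to 0.32) in the control and 0.16 (0.00 to 0.31) in the tomatidine library, and their Tgfb1 ratio was −0.21 (−0.44 to 0.01) and 0.20 (−0.04 to 0.43). Tgfb2 was −1.04 (−2.06 to −0.14) and −0.66 (−1.87 to 0.38). Cells with such a UMI were also deeper, at medians of 3918 and 3525 UMIs against 2848 and 2736 in the others. The part of depth and of the 2 microglial clusters in these ratios was not tested. Among astrocyte-like cells, the cluster led by Myoc, Thbs4 and Gfap had the most Smad7 (122 and 112 CPM, against 42.3 and 40.8 in the cluster led by Acsbg1 and 28.2 and 31.2 in that led by Cyp4f15) and the most Tgfb2 (105 and 111 CPM). Skil was instead highest in the Acsbg1 cluster, with 76.6 and 59.5 CPM. In oligodendrocyte-like cells, Smad7 was 386 and 352 CPM in the cluster led by Klk6 and Enpp6 and 287 and 263 in that led by Plin4 and Sec14l5.

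The comparison of the libraries asked, for each member and class, whether the level differed beyond counting error. A gene was called where its CPM ratio of tomatidine over control passed 1.2-fold and its interval left out equality, provided that the class held 20 or more UMIs of it. Of the 80 pairs of member and class, 73 could be tested, and 14 (19.2%) were called, 6 higher and 8 lower with tomatidine. Over all genes in the same classes, 12.01% of 95003 pairs were called, 7423 higher and 3990 lower. The difference between these shares was not tested. The share of all genes called, by the same rule, is given beside each class. The members' count is read against that share, and with 7 to 10 members tested per class a count of 1 or 2 lies near it.

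**Figure D3:**
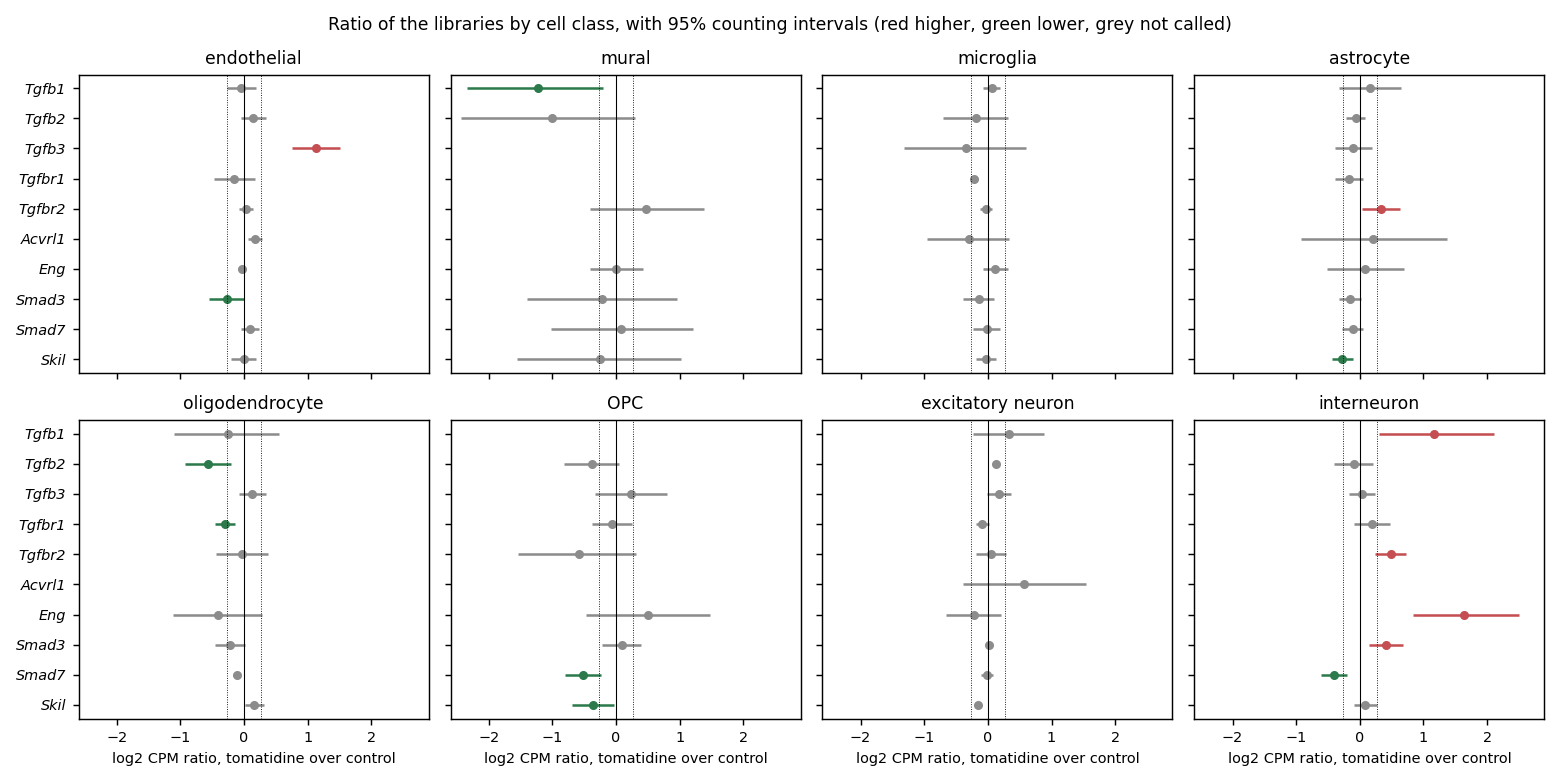
Log2 ratio of CPM, tomatidine over control, of the members with at least 20 UMIs in each of 8 cell classes, with 95% counting intervals; dotted lines mark 1.2-fold, and red, green and grey points are higher, lower and not called. Eng (1.63) and Tgfb1 (1.17) in interneuron-like cells and Tgfb3 in endothelial-like cells (1.13) lie farthest to the right, and Tgfb1 in mural-like cells (−1.23) farthest to the left.

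In endothelial-like cells 2 of 10 members were called, Tgfb3 higher and Smad3 lower, where 14.8% of all 12555 genes tested were called. The median log2 ratio of the members was 0.01, beside 0.02 over all genes tested. Eng, Tgfbr2, Tgfb1, Tgfb2, Smad7 and Skil had ratios between −0.04 and 0.14. Acvrl1 was 341 CPM in control and 386 in tomatidine cells, a log2 ratio of 0.18 (0.07 to 0.29), beyond counting error but below the fold. In the same cells endothelial markers were 16674 and 18151 CPM (0.12), with 12 of 15 higher. Astrocyte markers were 8422 and 6088 CPM (−0.47), with 0 of 13 higher. The part of these markers in the Acvrl1 ratio was not tested. Within vessel parts, Tgfbr2 was −0.45 (−0.82 to −0.07) in the cells led by arterial markers and 0.55 (0.03 to 1.08) in those led by venous markers, where Acvrl1 was 0.64 (0.16 to 1.13). These parts held 26 and 52 and 25 and 63 cells.

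Tgfb3 was counted 86 times in control and 209 times in tomatidine endothelial-like cells, or 24.6 and 53.7 CPM, a log2 ratio of 1.13 (0.76 to 1.51). Few cells carried the difference. The 5 cells with the most Tgfb3 held 22 of the 86 UMIs in the control library and 130 of the 209 in the tomatidine library, where 1 cell alone held 72. The share of cells with a Tgfb3 UMI was 14.95% and 13.04%, and with each cell thinned to 1500 UMIs, leaving out 46 and 72 shallower cells, 3.53% and 3.87%. Oligodendrocyte-like cells gave 11.7% and 12.5% unthinned and 3.34% and 3.73% thinned. Mural markers, summed over 12 genes, were also higher in the endothelial-like cells of the tomatidine library, at 6883 and 8352 CPM, with 9 of 12 higher. In endothelial-like cells with at most 2 mural markers detected, Tgfb3 had 8 and 10 UMIs, a log2 ratio of 0.01 (−1.48 to 1.56). Those cells were also shallower, with median depths of 2960 and 2823 UMIs against 11312 and 10597 in cells with over 2 mural markers. The part of depth in this split was not tested. Where cells with at least as many mural as endothelial markers were left out, which left 283 and 367 cells, the Tgfb3 ratio was 0.32 (−0.10 to 0.75). By vessel markers, Tgfb3 was 83.0 and 298 CPM in the 26 and 52 cells in which arterial markers led, and 18.9 and 13.5 CPM in the 229 and 263 in which capillary markers led. Among these parts the ratio was beyond counting error in the cells led by arterial markers (1.85, 1.18 to 2.58) and in those with over 2 mural markers (1.24, 0.86 to 1.64).

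Smad3 in endothelial-like cells was 68.7 CPM in the control and 56.8 CPM in the tomatidine library, from 240 and 221 UMIs, with a log2 ratio of −0.27 (−0.54 to −0.00), and the call was kept under 6 of 10 alternatives of cells, clusters and scaling. In cells with at most 2 mural markers the ratio was −1.25 (−1.83 to −0.69), and in the others, which were much deeper, 0.05 (−0.26 to 0.37). In cells led by capillary markers the ratio was −0.12 (−0.43 to 0.20), and in the 25 and 63 cells led by venous markers −1.81 (−2.98 to −0.74), from 25 and 11 UMIs. Smad7 was 242 and 240 CPM in the capillary part, 154 and 283 in the arterial and 66.8 and 188 in the venous part, the last from 11 and 48 UMIs. Eng was ordered capillary (1432 and 1419 CPM), arterial (1015 and 1061) and venous (771 and 832) in both libraries. Acvrl1 was even across the vessel parts in the control library (347, 340 and 316 CPM) while in the tomatidine library the venous part (491 CPM) was above the capillary part (371 CPM) beyond counting error and the arterial part (426 CPM) was not.

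**Figure D4:**
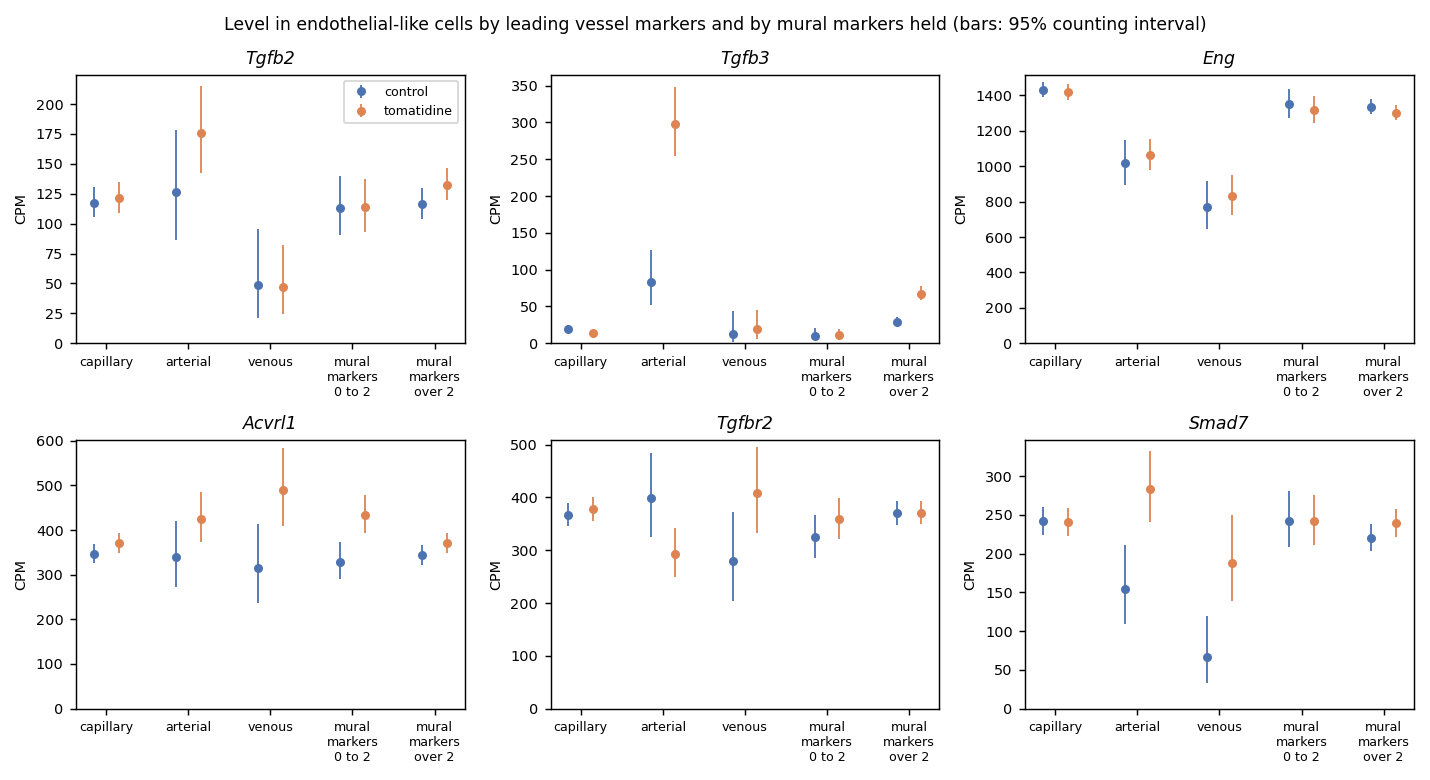
Level in CPM, with 95% counting intervals, of 6 members in endothelial-like cells split by the vessel marker list that led in a cell and by the number of mural markers detected, in the control (blue) and tomatidine (orange) library. Tgfb3 rises above 50 CPM in 3 of the 10 points, the arterial ones (83.0 and 298) and the tomatidine cells with over 2 mural markers (67.5), while Eng is highest in the capillary part of both libraries.

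Mural-like cells, cells of the vessel wall, were few. The pericyte genes Vtn (17189 and 18208 CPM) and Atp13a5 (2338 and 2348) were high in them. So were the mural markers Rgs5 (3752 and 3310), Abcc9 (1813 and 1553) and Kcnj8 (504 and 392). The smooth muscle genes Acta2 (78.8 and 15.7), Tagln (42.04 and 0) and Myh11 (57.8 and 78.4) were low. Of 7 members tested there, 1 was called, beside 10.0% of 5549 genes. Tgfb1 was lower, with 28 UMIs in the control and 12 in the tomatidine library (147 and 62.8 CPM), a log2 ratio of −1.23 (−2.34 to −0.21). Eng was 515 and 518 CPM, a ratio of 0.01 (−0.41 to 0.43). The median of the members was −0.21 and that of all genes −0.05. In this class astrocyte markers were 1524 CPM in the control and 7509 in the tomatidine library, all 13 higher, and microglia markers 189 and 612. Whether those cells bear on Tgfb1 was not tested.

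Microglia-like cells had no member called among 10, where 11.5% of 12064 genes were called. Tgfbr1 came nearest, with 4531 and 3345 UMIs and a log2 ratio of −0.22 (−0.29 to −0.16). It was −0.19 (−0.26 to −0.12) in the cluster led by Tmem119 and −0.09 (−0.33 to 0.15) in that led by Ctss. Under the 10 alternatives the Tgfbr1 ratio ranged from −0.43 to −0.14, and it was called under 3 of them. Microglia markers in this class were 47772 and 43908 CPM (−0.12), with 2 of 12 higher, and their part in the ratio was not tested. Tgfbr2 and Tgfb1 had ratios of −0.03 (−0.12 to 0.06) and 0.06 (−0.08 to 0.20). Over the members the median ratio was −0.09, and over all genes 0.04.

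In astrocyte-like cells 2 of 10 members were called, beside 10.2% of 13216 genes. Tgfbr2 was higher, at 13.6 and 17.1 CPM from 156 and 222 UMIs (log2 ratio 0.33, 0.03 to 0.64), with ratios of 0.29, 0.21 and 0.60 in the clusters led by Acsbg1, Cyp4f15 and Myoc. That call was kept under 4 of 10 alternatives, and at resolution 0.3 the gene was called lower (−0.33). Skil was lower, at 56.2 and 46.4 CPM from 644 and 601 UMIs (−0.28, −0.44 to −0.11), with −0.37, −0.29 and −0.03 in the same clusters, a call kept under 6 of 10 alternatives. The median of the members was −0.09, and that of all genes −0.00.

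Oligodendrocyte-like cells had 2 of 9 members called, beside 11.6% of 12894 genes. Tgfb2 was lower, at 10.6 CPM in the control and 7.14 in the tomatidine library from 197 and 100 UMIs (log2 ratio −0.57, −0.93 to −0.21), and the ratio was −0.56 and −0.50 in the clusters led by Plin4 and by Klk6. Choroid plexus-like cells, where Tgfb2 was highest, were far fewer in the tomatidine library, and their markers in oligodendrocyte-like cells were 601 and 84.3 CPM. The part of free RNA in this ratio was not tested. Tgfbr1 was lower as well, at 48.1 and 39.1 CPM from 895 and 547 UMIs (−0.30, −0.46 to −0.14), with −0.13 (−0.36 to 0.11) in the Plin4 and −0.43 (−0.64 to −0.22) in the Klk6 cluster. Smad7, whose highest class this was, had a ratio of −0.12 (−0.17 to −0.06). Members had a median ratio of −0.22, against 0.05 for all genes.

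In OPC-like cells 2 of 8 members were called, beside 14.5% of 11801 genes. Smad7 was 103 and 71.5 CPM from 318 and 156 UMIs (log2 ratio −0.52, −0.81 to −0.24), and Skil 70.4 and 55.0 CPM from 218 and 120 UMIs (−0.36, −0.69 to −0.03), a call kept under 4 of 10 alternatives. Oligodendrocyte markers, a class in which Smad7 was highest, were lower in the same cells, at 14198 and 8119 CPM with 0 of 13 higher (−0.81), and their part in the Smad7 ratio was not tested. The median of the members was −0.21 and that of all genes 0.03.

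Excitatory neuron-like cells had 0 of 10 members called, beside 11.2% of 14011 genes. Smad3 differed by a log2 ratio of 0.02 (−0.02 to 0.06) from 11661 and 8799 UMIs, Tgfb2 by 0.12 (0.07 to 0.17) and Skil by −0.16 (−0.20 to −0.11). In the Fibcd1 cluster alone, Tgfb2 was 0.42 (0.27 to 0.58) and Skil −0.24 (−0.32 to −0.16), while Tgfb2 was −0.17 (−0.28 to −0.06) in the Cldn22 cluster. Their median ratio was 0.04, beside 0.05 for all genes.

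Interneuron-like cells had the most members called, 5 of 9, of which 4 were higher and 1 lower, beside 11.4% of 12913 genes. The median of the members was 0.19, and that of all genes 0.04. Tgfbr2 was 18.3 and 25.6 CPM from 245 and 313 UMIs, a log2 ratio of 0.48 (0.24 to 0.73), and was higher in both clusters, by 0.51 (0.22 to 0.81) in the Sst and 0.52 (0.07 to 0.98) in the Vip cluster. Smad7 was 36.9 and 28.0 CPM from 494 and 342 UMIs, a ratio of −0.40 (−0.60 to −0.20), and lower in both, by −0.45 (−0.73 to −0.17) and −0.39 (−0.69 to −0.09). Tgfbr1, the other receptor, was 0.65 (0.27 to 1.03) in the Sst and −0.45 (−0.90 to −0.01) in the Vip cluster. Smad3 was 15.9 and 21.2 CPM (0.41, 0.15 to 0.68), with 0.64 (0.22 to 1.06) in the Sst cluster and 0.14 (−0.21 to 0.50) in the Vip cluster. With the stricter cell filter (also under 6000 genes and 10% mitochondrial UMIs) the class held 235 control and 233 tomatidine cells. None of the 5 calls was kept there, and the ratios of Tgfb1 (−0.95) and Smad3 (−0.62) were reversed.

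The other 2 calls in interneuron-like cells rested on few UMIs. Eng was counted 18 and 51 times (log2 ratio 1.63, 0.83 to 2.50), and the 5 cells with the most held 7 and 26 of them. The share of cells with an Eng UMI was 2.86% and 4.38%, and 0.676% and 0.605% after thinning to 1500 UMIs, beside 0.587% and 0.391% in oligodendrocyte-like cells. Tgfb1 was counted 17 and 35 times (1.17, 0.30 to 2.10). Both genes are highest in vessel or microglial cells, and in the interneuron-like cells endothelial markers were 74.1 and 93.1 CPM, 14 of 15 higher, mural markers 23.4 and 41.5 CPM and microglia markers 300.3 and 378.8 CPM. Oligodendrocyte markers, of the class highest in Smad7, were 2432 and 2044 CPM (−0.25). The part of these markers in the Eng, Tgfb1, Tgfbr2 and Smad7 ratios was not tested.

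Outside the 8 classes, fibroblast-like cells had lower Eng, at 134 and 71.7 CPM from 192 and 175 UMIs (log2 ratio −0.90, −1.21 to −0.60), and lower Smad7, at 76.9 and 44.7 CPM (−0.78, −1.18 to −0.39). The 5 cells with the most Eng held 64 of its UMIs in the control and 28 in the tomatidine library. For Smad7 they held 23 of 110 and 19 of 109. The share of all genes called was not computed for this class, so these ratios have no background. Summed over whole libraries, Tgfbr1 was 51.9 and 42.5 CPM (−0.29), Tgfb2 54.6 and 45.1 (−0.27) and Acvrl1 7.15 and 8.75 (0.29). In those sums more cells of a class and more RNA per cell cannot be told apart, and the endothelial-like share of cells was 1.99% in the control and 2.85% in the tomatidine library.

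Of the 14 called ratios, 10 kept their sign under all of the alternative cell filters, clusterings, naming rules and scalings that could give a value, and 0 kept their call under every one. One of these 10, Eng in interneuron-like cells, changed sign as the mean over cells (−0.086). Tgfbr2 in interneuron-like cells ranged from 0.44 to 0.74 and lost its call only with the stricter cell filter, as did Tgfbr1 in oligodendrocyte-like cells (−0.35 to −0.23) and Smad7 in interneuron-like cells (−0.50 to −0.07). Tgfb2 in oligodendrocyte-like cells (−0.69 to −0.10) lost its call only with all deposited cells, and Tgfb1 in mural-like cells (−1.34 to −0.66) only with the marker gate. Tgfb3 in endothelial-like cells ranged from 0.15 to 1.24. Smad3 and Tgfb1 in interneuron-like cells and Tgfbr2 and Skil in astrocyte-like cells changed sign under at least 1 alternative.

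**Figure D5:**
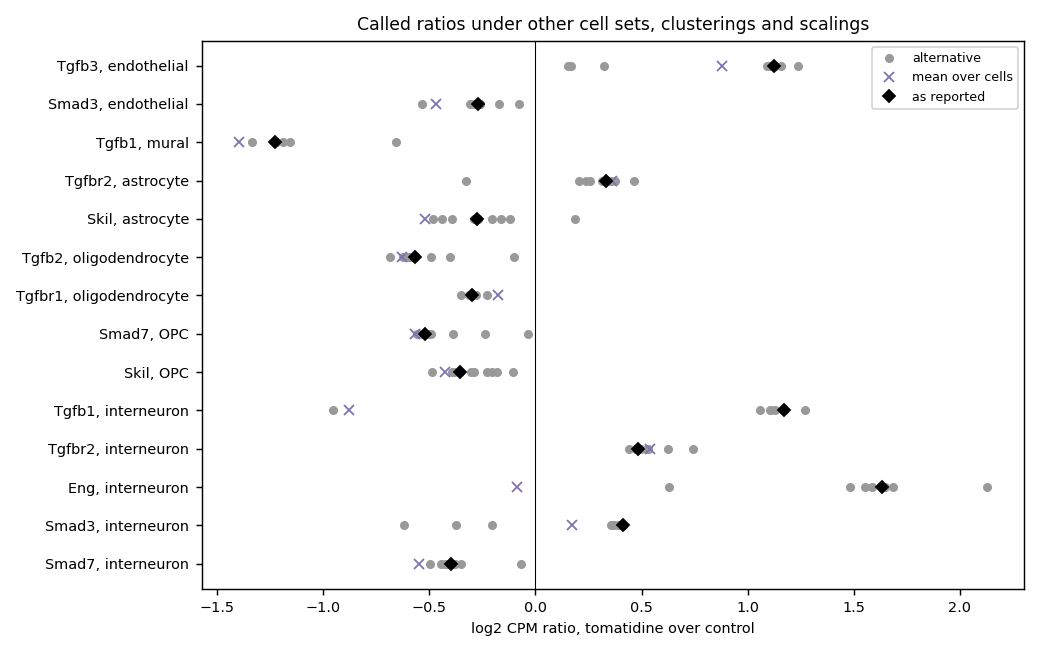
The 14 called log2 ratios (black diamonds) with their values under other cell sets, clusterings and scalings (grey points) and as the mean over cells (purple crosses), on an axis of log2 CPM ratio, tomatidine over control. Tgfbr2 in interneuron-like cells (0.44 to 0.74) stays to the right of 0 and Tgfbr1 in oligodendrocyte-like cells (−0.35 to −0.23) to the left, while the grey points of Smad3 in interneuron-like cells cross 0.

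The other genes of the pathway, 67 on lists of ligands, latency proteins, receptors, SMADs, regulators and targets, gave 444 pairs with at least 20 UMIs, of which 77 (17.3%) were called, 52 higher and 25 lower with tomatidine. Over all genes in the same classes 12.01% of 95003 pairs were called, 7423 higher and 3990 lower, so that 67.5% of the called pathway pairs and 65.0% of all called pairs were higher. Latency and activation genes, which hold and release the ligands, had 13 higher and 1 lower of 70 pairs, beside these shares over all genes. Target genes had 21 higher and 6 lower of 81, and other ligands, mostly bone morphogenetic proteins and inhibins, 11 higher and 6 lower of 70. Other receptors had 3 higher and 5 lower of 70, regulators 4 higher and 6 lower of 114, and the other SMADs 0 higher and 1 lower of 39.

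Large ratios among the called pathway genes differed by class. In endothelial-like cells Bmp3, with 6 and 27 UMIs (log2 ratio 2.02), and Inhba (1.09) were higher and Gdf10 (−1.51) lower. In mural-like cells Fn1 (2.39), Id1 (1.58) and Junb (1.25) were higher and Ccn2 (−2.19) lower. In microglia-like cells Bmp7 (1.13), Bmp6 (1.12) and Inha (0.72) were higher and Bambi, a decoy receptor, lower (−0.84). In the same cells mural markers were 42.5 and 104 CPM and fibroblast markers 50.8 and 108 CPM, and their part was not tested. Astrocyte-like cells had higher Ccn2 (0.71) and Fbn1 (0.55) and lower Cd109 (−0.72) and Acvr1c (−0.54). In OPC-like cells Ccn2 went from 5 to 31 UMIs (3.14) and Fn1 was higher (0.86), with Tgfbi (−1.55) and Acvr1c (−1.49) lower, beside mural markers of 28.1 and 100.4 CPM and fibroblast markers of 79.4 and 144 CPM, whose part was not tested. Oligodendrocyte-like cells showed lower Junb (−0.68) and Bmp6 (−0.49) and higher Fn1 (0.55) and Klf10 (0.46). Excitatory neuron-like cells had lower Tgfbi (−0.66) and higher Thbs2 (0.65), Col4a1 (0.61) and Bmp3 (0.51), and interneuron-like cells lower Bmp5 (−1.73) and Bmpr1b (−1.14) and higher Fn1 (1.04) and Lrrc32 (0.88). Fn1, the gene of fibronectin, was called higher in 6 of the 8 classes and lower in 0, and Ccn2 was called higher in 2 and lower in 1. Fibroblast markers were 21.8 and 35.5 CPM in interneuron-like, 35.0 and 31.4 in oligodendrocyte-like and 67.9 and 67.1 in excitatory neuron-like cells. Mural markers there were 23.4 and 41.5, 28.6 and 36.9, and 17.3 and 21.4 CPM in the same order. In mural-like cells fibroblast markers were 1361 and 1543 CPM. The part of such markers in the Fn1 calls was not tested.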

How the data were processed

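Hippocampal cells of 2 pooled libraries, control and tomatidine, were profiled with a fixed-RNA probe assay. The authors aligned the reads to mm10 with Cell Ranger (version 8.0.0 per the labels, 7.1.0 per the file headers) and deposited raw UMI counts per gene and cell, without normalization. From these counts, a cell was kept if it held 500 UMIs or more and more than 250 genes, if log10 of its genes divided by log10 of its UMIs exceeded 0.8, and if mitochondrial genes made up less than 20% of it. Doublets were scored with Scrublet in scanpy 1.11.5, whose own threshold called 0 and 2 cells and was not used; the 2% of cells with the highest scores (308 and 296) were left out instead. Seurat 5.3.0 in R 4.3.3 integrated the libraries (RPCA, 2000 variable genes, 30 components) and clustered the cells (Louvain resolution 0.8), with pathway and sex-linked genes left out. A cluster was named from markers where 1 class led its 10 genes of highest fold and at least 3 of its markers were raised; the naming rule was revised after clusters were seen, and a difference from the study may come from these rebuilt names. Members and gene lists were chosen with earlier results of these data known.

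Of the 67 other pathway genes, those named are the up to 4 called genes with the largest log2 ratio per class; likeness genes are the 3 with the highest r. One gene that this rule names is not reported here. UMIs were summed per class and library. Ratios have exact conditional binomial intervals, sums exact Poisson, and shares exact binomial ones; all cover counting error only. Thinned shares are expected values at 1500 UMIs per cell. Without replicates no test was run. The calculation was tested on simulated counts. Alternatives covered the cell filter, doublets, integration, resolution, a gate of at least 5 markers, thresholds, thinning, the mean over cells and TMM factors (edgeR 4.0.16, used for these alone). A cell set by vascular markers and one without shared barcodes were added after seeing the data. Cx3cr1, Ly6c1, Tmem2 and Clec7a were not analysed here. Sums and intervals were computed with scipy 1.17.1, numpy 2.4.6 and pandas 2.3.3 under Python 3.11.15.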

Additional observations from a re-analysis of the deposited data

Results flagged for a closer look

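For 2 members, calls went in opposite directions in different cell classes. The log2 ratio of Tgfb1, tomatidine over control, was 1.17 in interneuron-like cells and −1.23 in mural-like cells, from 17 and 35 UMIs and from 28 and 12 UMIs. For Smad3 the ratios were 0.41 (interneuron-like) and −0.27 (endothelial-like). With 1 library per group, the difference between the classes was not tested for either gene.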

How the results depend on the processing

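The 14 calls among members became 7 with the thresholds of both QC sections of the study (also under 6000 genes and 10% mitochondrial UMIs) and 4 at 1.5-fold, and ranged from 12 to 20 under the other alternatives. Some of these counts include pairs not among the 14. With both QC thresholds, the only calls kept of the 14 were Tgfb1 in mural-like, Tgfb2 in oligodendrocyte-like and Smad7 in OPC-like cells. With the marker gate, the only calls kept were Tgfb2 and Tgfbr1 in oligodendrocyte-like and Tgfbr2 and Smad7 in interneuron-like cells. Over all genes the 11413 calls became 4096 at 1.5-fold and 23631 with the interval alone. The class with the highest level was kept for 10 of 10 members except under 4 settings. It was kept for 9 in each library with both QC thresholds and without integration, for 9 in the tomatidine library at resolution 0.3, and for 7 in each library with the marker gate. Tgfb2 changed where choroid plexus-like cells of the tomatidine library fell below the 30 needed for the order. They numbered 26 with both QC thresholds, 28 without integration and 13 with the gate. Tgfb3 changed at resolution 0.3. With the gate, Smad3 was highest in fibroblast-like and Smad7 in endothelial-like cells in both libraries. Ratios that changed sign were Tgfbr2 in astrocyte-like cells at resolution 0.3 (−0.33), Skil in astrocyte-like cells with both QC thresholds (0.18), Tgfb1 in interneuron-like cells with both QC thresholds (−0.95) and as the mean over cells (−0.88), Eng in interneuron-like cells as the mean over cells (−0.086), and Smad3 in interneuron-like cells with both QC thresholds (−0.62), without integration (−0.37) and with the marker gate (−0.21); the cause was not tested. Under at least 1 of these settings, Tgfbr2 in astrocyte-like cells and Smad3 in interneuron-like cells were called lower. Of 59 pairs not called, 21 were called under at least 1 alternative. Resolution 0.3 gave no mural-like class. No paired analysis was possible because each group has 1 library. Depth limits the mural-like class and any gene with few UMIs.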
